A study of Mus musculus with 12 samples.

Results

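The synaptonemal complex is the protein ladder that holds paired homologous chromosomes together in meiotic prophase, and the 7 genes described here encode structural parts of it. They were taken as a list of names (Sycp1, Sycp2, Sycp3, Syce1, Syce2, Syce3 and Tex12), which is 7 of the 21887 protein-coding genes of the mouse gene table used here (autosomes and sex chromosomes). Spermatogenic cells were isolated from testes of 18-day-old mice of a mixed strain background and used for ChIP-seq. Wild-type cells were used for INO80, and the histone variant H2A.Z was mapped in Ino80cKO cells, in which Ino80 was deleted with Stra8-Cre, and in Ino80WT cells. Each of these 3 groups has 2 libraries, and each has 2 input libraries of the same genotype, which were not analysed here. Stra8-Cre acts in germ cells, so somatic cells left in a suspension would keep Ino80. Each ChIP group is represented by 1 deposited list of peak positions in the mm10 build, without heights, folds or p-values. No value below therefore has a replicate error, the depth is unknown, and the labelled cell type and the deletion itself cannot be checked from the lists. All comparisons are descriptions of lists, with no test.

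In the complex, rod-shaped SYCP1 dimers run as transverse filaments between the chromosome axes. SYCP2 and SYCP3 coat each axis as the lateral elements. SYCE1, SYCE2, SYCE3 and TEX12 are among the proteins of the central element in the midline, where the ends of SYCP1 from both sides meet. INO80 is a remodelling enzyme, the motor of a large complex that moves nucleosomes and can exchange H2A.Z, and H2A.Z commonly flanks the start sites of genes that are active or poised.

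The 7 genes lie on 7 different chromosomes. Sycp1 lies on chromosome 3 (102818499 to 102936100, minus strand), Sycp2 on chromosome 2 (178345295 to 178407776, minus strand) and Sycp3 on chromosome 10 (88459587 to 88473236, plus strand). Syce1 lies on chromosome 7 (140777229 to 140787854, minus strand), Syce2 on chromosome 8 (84872111 to 84887446, plus strand), Syce3 on chromosome 15 (89390174 to 89410503, minus strand) and Tex12 on chromosome 9 (50557148 to 50561268, minus strand). Their lengths run between 4121 bp at Tex12 and 117602 bp at Sycp1. Distances below count from the most upstream listed start site, with positive values into the gene. The start site at Sycp2 (178407658) lies inside the annotated end of the gene (178407776), and Syce2 and Syce3 each have 2 listed starts.

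The bases just before the start sites of 4 of these genes are shown because they hold the same short motif but differ in which peaks cover them. The motif is the E-box CACGTG, the recognition site of MAX-containing dimers and related factors. The 250 bases before the start are given 5′ to 3′ on the gene's strand, from RefSeq, GRCm38.p6 (mm10), and capitals mark each E-box and each E2F core, GGCGGGA, on either strand. Sycp1 is chr3:102936101-102936350 on the minus strand, Sycp3 is chr10:88459337-88459586 on the plus strand, Syce2 is the region before its downstream start, chr8:84872008-84872257 on the plus strand, and Tex12 is chr9:50561269-50561518 on the minus strand.
Sycp1: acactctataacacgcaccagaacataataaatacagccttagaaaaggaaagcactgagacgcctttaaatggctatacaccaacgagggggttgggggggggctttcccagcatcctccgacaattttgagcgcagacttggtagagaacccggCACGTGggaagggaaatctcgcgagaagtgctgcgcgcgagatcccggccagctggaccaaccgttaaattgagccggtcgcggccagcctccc
Sycp3: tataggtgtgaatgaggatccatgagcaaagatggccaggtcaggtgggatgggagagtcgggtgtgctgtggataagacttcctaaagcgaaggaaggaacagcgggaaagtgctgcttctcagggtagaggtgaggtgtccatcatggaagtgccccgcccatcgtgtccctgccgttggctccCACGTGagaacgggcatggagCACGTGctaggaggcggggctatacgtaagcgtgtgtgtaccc
Syce2: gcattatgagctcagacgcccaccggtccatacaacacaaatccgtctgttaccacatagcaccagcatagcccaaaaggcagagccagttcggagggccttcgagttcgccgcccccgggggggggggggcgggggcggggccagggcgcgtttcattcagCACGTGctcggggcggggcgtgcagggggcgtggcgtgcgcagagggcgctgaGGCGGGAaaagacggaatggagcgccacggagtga
Tex12: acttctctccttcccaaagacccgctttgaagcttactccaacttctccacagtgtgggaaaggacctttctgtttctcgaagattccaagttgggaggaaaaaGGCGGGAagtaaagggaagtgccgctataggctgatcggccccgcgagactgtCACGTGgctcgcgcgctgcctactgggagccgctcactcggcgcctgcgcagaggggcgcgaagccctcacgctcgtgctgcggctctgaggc

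The E-box lay 94 bases before the start of Sycp1, 93 before that of Tex12, 88 before the downstream start of Syce2, and at 64 and 43 bases before the start of Sycp3. At Tex12 and Syce2 these E-boxes were inside H2A.Z peaks of both genotypes. At Sycp1 and Sycp3 no listed peak of INO80 or H2A.Z covered them. At Tex12 and Syce2 the H2A.Z peaks of both genotypes cover all the bases shown, and at Sycp3 no listed peak reaches them. Cover of the E-box at these genes thus restates where the peaks lie. The window of 250 bases before to 50 after each listed start was searched, which gives 9 promoters for the 7 genes. The 2 windows of Syce2 overlap each other, as do the 2 of Syce3, so the 9 are not all separate. An E-box was found in 4 of 9, against 7.15% of the 32851 promoters in the table, and in 4 of the 8 with at least 10 CpG dinucleotides, against 10.9% of 14281. The E2F core was found in 2 of 9, that of the downstream start of Syce2 with 2 matches and that of Tex12 with 1, against 11.3% of all promoters and 23.4% of those with at least 10 CpG. A match is a run of letters and not a bound site. The motifs were chosen with earlier results of these data known, and no test of these counts was run.

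Of the 3 other motifs searched on both strands, the YY1 core GCCATNTT was found in 2 of 9 (6.05% of all promoters). Among those with at least 10 CpG it was in 2 of 8 (7.86%). YY1 binds DNA and is found in complexes with INO80. The match at Sycp2, 135 bases before its start, lay inside the INO80 peak, and the match at Sycp3, 222 bases before its start, lay outside every listed peak. The INO80 peak covers all 300 bases of the Sycp2 window, and no listed peak reaches the Sycp3 window. Any match in these windows would therefore lie the same way, and a link of YY1 to INO80 was not tested. The MYB core CAACNG was found at Sycp1, Sycp3 and Syce3 (3 of 9, against 35.0% of all promoters). CNCCTCAG, a motif linked to the meiotic entry factor STRA8, was found at Sycp1, Syce2 and Tex12 (3 of 9, against 7.94%). Among promoters with at least 10 CpG, the MYB core was in 2 of 8 (against 32.1%) and CNCCTCAG in 3 of 8 (against 9.33%). At Syce2 the CNCCTCAG match overlaps the E2F core before the downstream start.

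INO80 was listed at 5 of the 7 genes, counted over the gene body and 5 kb on both sides, against 63.3% of all protein-coding genes. Each of the 5 had 1 peak, and each peak was at the start of the gene. Within 1 kb of a start site the count was again 5 of 7, against 56.0% of the 17492 protein-coding genes with a listed start. The filament gene and both lateral element genes had an INO80 peak, as did Syce1 and Syce2, while Syce3 and Tex12 had none. With the widest 50% of each list, INO80 was listed at 3 of 7. This cut can only lower such a count, and the share of all genes under it is not given here. The midpoints of the 5 peaks lay between +112 and +512 bp, all downstream of the start, and 79.3% of 9840 INO80 peaks near start sites had their midpoint downstream of the nearest start.

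**Figure D1:**
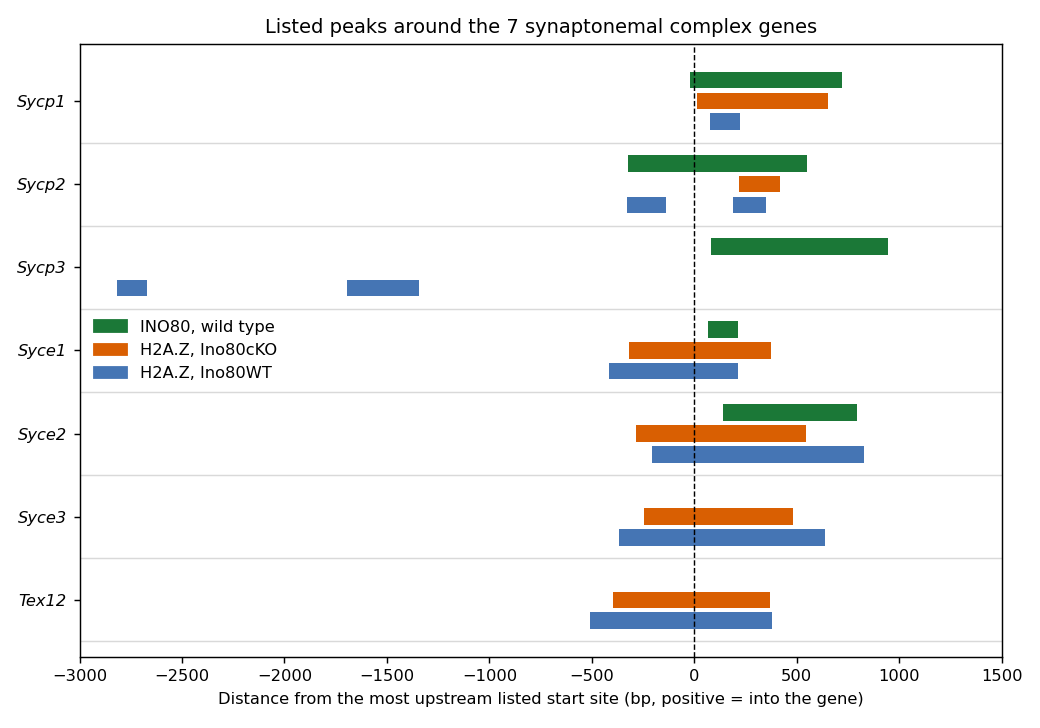
Peaks of the 3 lists around the 7 genes, drawn to scale by distance from the most upstream listed start site in bp, with INO80 above Ino80cKO H2A.Z above Ino80WT H2A.Z in each gene's band. All INO80 and Ino80cKO peaks lie between -396 and +945 bp, and the Sycp3 band has no Ino80cKO bar and Ino80WT bars at upstream positions alone.

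At Sycp1 the INO80 peak was 743 bp wide and ran from -22 to +720 bp (chromosome 3, 102935380 to 102936122). Sycp2 had the widest of the 5, 874 bp from -324 to +549 bp (chromosome 2, 178407109 to 178407982). The peak at Sycp3 was 866 bp wide and lay wholly inside the gene, from +80 to +945 bp (chromosome 10, 88459667 to 88460532). These 3 were near the middle of the list, at the 48.0, 55.5 and 55.1 percentile of width among INO80 peaks near start sites. At Syce2 the peak spanned 651 bp from +142 to +792 bp (chromosome 8, 84872253 to 84872903, percentile 42.6). It covers the downstream listed start of Syce2 (84872258), near its upstream edge. Syce1 held a peak of 147 bp from +67 to +213 bp (chromosome 7, 140787641 to 140787787), which is the smallest width in the list, where 348 peaks have it. The nearest INO80 peak to the start of Syce3 was 15044 bp away, near Chkb, and that to the start of Tex12 was 42699 bp away, near Timm8b.

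H2A.Z was listed at 6 of 7 genes in Ino80cKO cells and at 7 of 7 in Ino80WT cells over the body and 5 kb, against 70.1% and 73.6% of all protein-coding genes. Near the start site, within 1 kb, it was 6 of 7 in both genotypes, against 60.9% in Ino80cKO and 63.9% in Ino80WT cells. The gene without it there was Sycp3 in each genotype. With the widest 50% of each list, Ino80cKO H2A.Z was listed at 5 genes and Ino80WT H2A.Z at 4 over the body and 5 kb. These counts have no share of all genes beside them, since the shares above are for the full lists. The same 6 genes had H2A.Z of both genotypes at the start, which 60.3% of genes with a listed start have. None of the 7 was Ino80cKO only (0.572% of genes) or Ino80WT only (3.61% of genes) by this count. No peak of any list had its midpoint more than 1 kb into any of the 7 genes, including the 117602 bp of Sycp1. The share of all protein-coding genes without such a peak is not given here, so this is not shown to be particular to the 7.

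**Figure D2:**
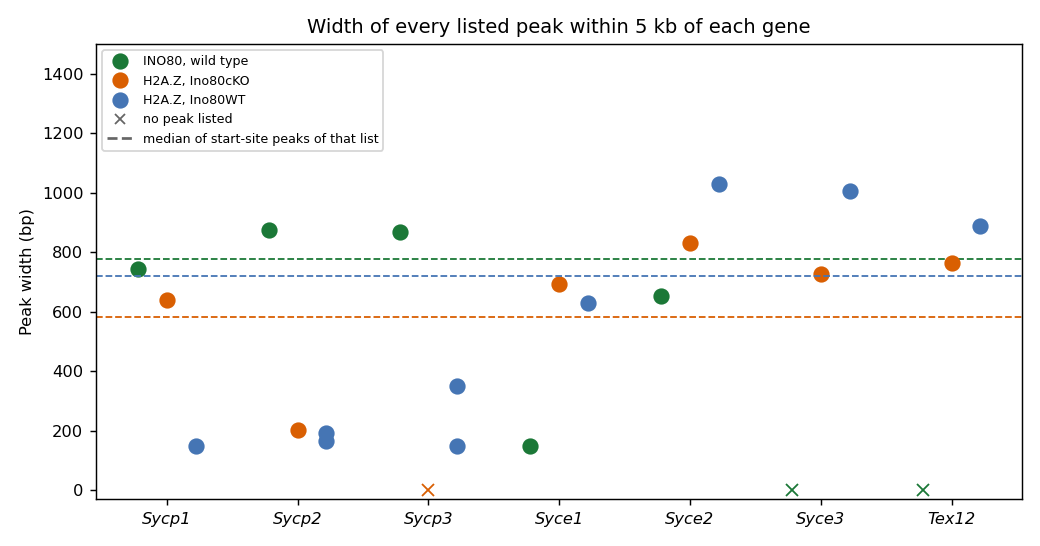
Width in bp of each listed peak in the body and 5 kb on both sides of the 7 genes, 1 point a peak, with crosses where a list has no peak and dashed lines at the median of each list's peaks near start sites (776 bp for INO80, 582 bp for Ino80cKO H2A.Z, 719 bp for Ino80WT H2A.Z). The Ino80WT points of Sycp1, Sycp2 and Sycp3 lie between 147 and 351 bp and those of the 4 central element genes between 629 and 1030 bp.

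The central element genes had the wider H2A.Z peaks. At Syce2, which encodes a partner of TEX12 in the central element fibres, the peak was 832 bp in Ino80cKO cells (-285 to +546 bp) and 1030 bp in Ino80WT cells (-204 to +825 bp). Syce3, whose protein helps to load the other central element proteins, had 727 bp in Ino80cKO cells (-247 to +479 bp) and 1007 bp in Ino80WT cells (-367 to +639 bp). At Tex12 the peak was 764 bp in Ino80cKO cells (-396 to +367 bp) and 888 bp in Ino80WT cells (-507 to +380 bp). All 3 were wider in Ino80WT cells. The Tex12 peaks also lie in the annotated body of Il18, a gene on the other strand that spans Tex12, and Tex12 has the nearest listed start.

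Syce1, which encodes a central element protein that binds the SYCP1 end, went the other way in width, with 692 bp in Ino80cKO cells (-318 to +373 bp) and 629 bp in Ino80WT cells (-414 to +214 bp). The Ino80cKO peak reached 159 bp further into the gene at its downstream edge and began 96 bp closer to the start at its upstream edge.

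At Sycp1 the Ino80cKO H2A.Z peak was 640 bp (+14 to +653 bp; chromosome 3, 102935447 to 102936086) and the Ino80WT peak was 147 bp (+77 to +223 bp; 102935877 to 102936023). The Ino80WT peak lay wholly inside the Ino80cKO peak, which had 493 bp beyond it, and the Ino80cKO peak lay wholly inside the INO80 peak of wild-type cells. The ratio of widths, 4.35 (Ino80cKO over Ino80WT), was matched or exceeded by 44 of 11477 overlapping pairs near start sites, Sycp1 included. An Ino80WT peak of 147 bp is at the smallest width listed, so its partner can be only as wide or wider. Among the 24 pairs near start sites with an Ino80WT peak of that width the median ratio was 1.40, and 4 of 24 reached that of Sycp1.

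Sycp2, which encodes the axis protein that binds SYCP3, had 1 Ino80cKO peak of 201 bp (+217 to +417 bp) and 2 Ino80WT peaks, of 165 bp (+187 to +351 bp) and 191 bp (-328 to -138 bp). The downstream peaks of the genotypes shared 135 bp. The upstream Ino80WT peak had no Ino80cKO peak on it. The INO80 peak covered the Ino80cKO peak whole and 352 of the 356 bp of both Ino80WT peaks. By the overlapping pair Ino80cKO was the wider (ratio 1.22), whereas by the sum of all peaks it was the narrower (0.565). Wider peaks of all 3 lists lay outside the 5 kb, over the neighbouring genes Ppp1r3d and Fam217b, with 2157 bp of INO80, 1524 bp of Ino80cKO H2A.Z and 1589 bp of Ino80WT H2A.Z.

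Sycp3, which encodes the core lateral element protein, had INO80 without H2A.Z within 1 kb of its start. No Ino80cKO peak was listed in its body and 5 kb, and the nearest lay 43959 bp from the start, near Chpt1. In Ino80WT cells there were 2 peaks upstream, 351 bp wide at -1694 to -1344 bp (chromosome 10, 88457893 to 88458243) and 147 bp wide at -2818 to -2672 bp (88456769 to 88456915). Neither overlapped INO80. Of the genes with INO80 within 1 kb of a start, 2.54% had no H2A.Z of either genotype there, against 1 of 5 here. In the opposite arrangement, Syce3 and Tex12 were 2 of the 6 genes with H2A.Z of both genotypes at the start that had no INO80 there, against 12.9% of all such genes.

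Across the 6 genes with an overlapping pair, the Ino80cKO peak was the wider at 3 (Sycp1, Sycp2 and Syce1) and the narrower at 3 (Syce2, Syce3 and Tex12), against 26.8% of all 11477 pairs near start sites in which the Ino80cKO peak was the wider. The ratios of Ino80cKO over Ino80WT width were 4.35 at Sycp1, 1.22 at Sycp2, 1.10 at Syce1, 0.860 at Tex12, 0.808 at Syce2 and 0.722 at Syce3, and the median of all pairs was 0.881. The 3 genes with ratios above 1 have the narrower Ino80WT peaks of the 6, while among the other three the order of ratios does not follow that of Ino80WT widths. Over all pairs the Ino80cKO peak was the wider in 65.4% where the Ino80WT peak was 147 to 199 bp and in 24.3% where it was 600 to 1099 bp. The part of peak strength, and of the unknown depth of each list, in these differences was not tested.

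**Figure D3:**
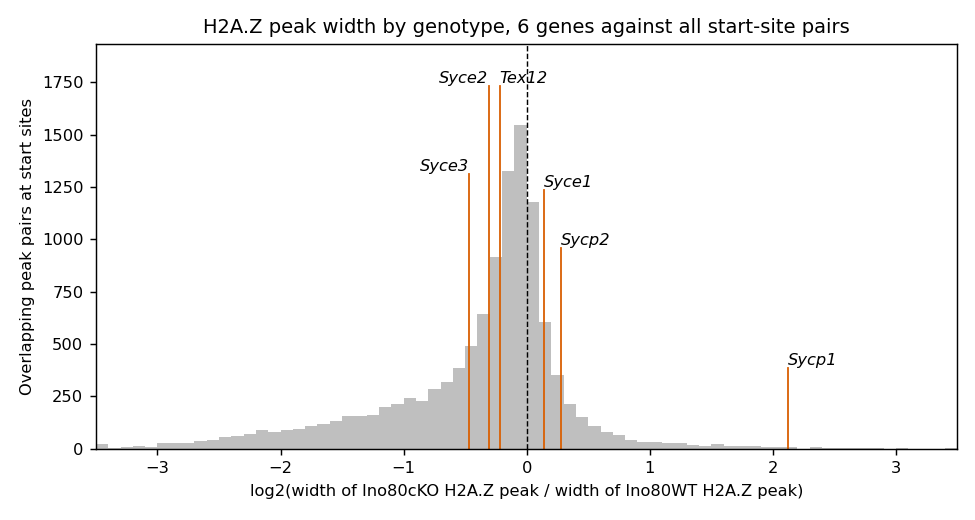
Histogram of log2 width ratio (Ino80cKO over Ino80WT) over the 11477 overlapping H2A.Z peak pairs near start sites, with the 6 synaptonemal complex genes that have such a pair as lines whose height carries no value (ratios beyond the axis are counted in its end bins). Sycp1 stands at 2.12 in the right tail, Sycp2 at 0.28 and Syce1 at 0.14 are right of 0, and Tex12 at -0.22, Syce2 at -0.31 and Syce3 at -0.47 are left of it.

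H2A.Z peaks that overlapped between the genotypes were merged. The windows of the 7 genes held 9 merged regions, of which 6 had both genotypes (74.9% of the 24255 regions in the windows of all protein-coding genes), 0 were Ino80cKO only (4.07%) and 3 were Ino80WT only (21.0%). The 3 were the upstream region of Sycp2 and both regions of Sycp3, each from 147 to 351 bp wide. With the Ino80WT list (33827 peaks) cut by width to the length of the Ino80cKO list (26199), 2 regions were Ino80cKO only and 1 was Ino80WT only. INO80 overlapped 4 of 6 Ino80cKO peaks and 5 of 9 Ino80WT peaks, against 69.5% and 62.1% of the Ino80cKO and Ino80WT peaks in the windows of all protein-coding genes. With the widest 50% of each list these overlaps numbered 1 and 0, and with the Ino80WT list cut as above 2 Ino80WT peaks overlapped INO80. Fewer H2A.Z peaks are left after these cuts, so the numbers cannot be set directly against 4 of 6 and 5 of 9. At Syce2 the 651 bp of INO80 lay wholly inside the Ino80WT peak and shared 405 bp with the Ino80cKO peak. At Syce1 all 147 bp lay inside the peaks of both genotypes.

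Peak presence at start sites varied with CpG content, so the 7 genes are given here by CpG class. The promoter windows of 300 bases held 26 CpG at Tex12, 21 at Sycp1, 19 at Syce2 (33 at its downstream start), 15 at Sycp3, 14 at Syce1, 10 at Sycp2 and 5 at Syce3 (15 at its downstream start), against a median of 13 over the 21263 start sites of protein-coding genes and of 7 over all promoters in the table. In the class with 25 or more CpG, INO80 was listed within 1 kb of 97.0% of 5263 start sites, and Tex12 is in this class without it. The pattern of Tex12, H2A.Z of both genotypes and no INO80, was found at 113 of those 5263 start sites (2.15%). In the class with 15 to 24 CpG, H2A.Z was listed near 91.5% of 4694 start sites in Ino80cKO cells and 94.6% in Ino80WT cells, and Sycp3 is in this class without it. INO80 with no H2A.Z of either genotype, as at Sycp3, was found at 106 of the 4694 (2.26%). Syce3, without INO80, has its upstream start in the class of 5 to 9 CpG, where INO80 was listed near 25.8% of start sites, and its downstream start in that of 15 to 24, where the share was 85.7%. Sycp1 and the upstream start of Syce2 are in the class of 15 to 24 as well and had peaks of all 3 lists. Sycp2 and Syce1, in the class of 10 to 14 CpG, also had all 3, where INO80 was listed near 64.7% of start sites and H2A.Z near 78.8% in Ino80cKO and 84.7% in Ino80WT cells.

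**Figure D4:**
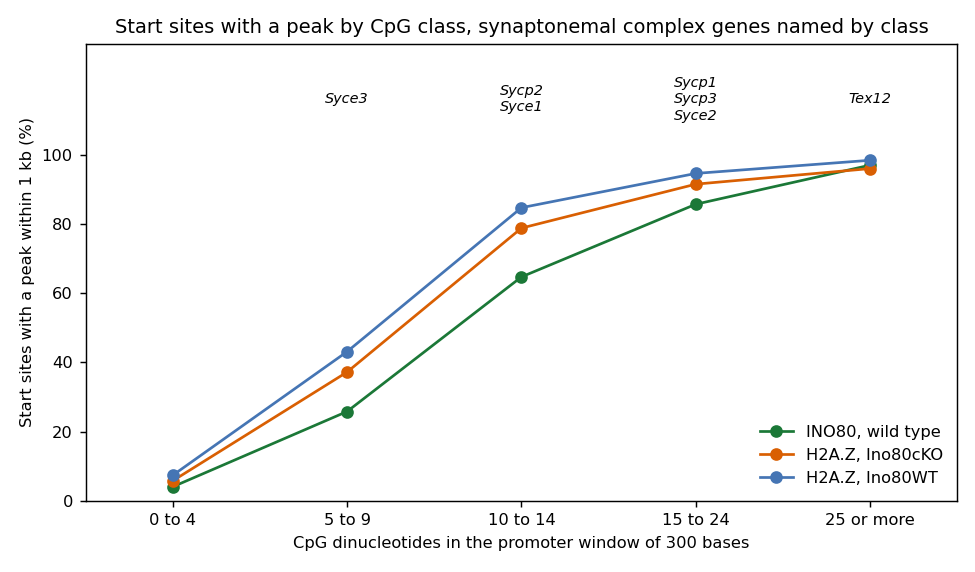
Percent of listed start sites of protein-coding genes with a peak of each list within 1 kb, by number of CpG dinucleotides in the promoter window, with the 7 genes named above the class of their most upstream start. All 3 lines climb with CpG content, to between 96.0 and 98.4% at 25 or more CpG, the class of Tex12.

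The other genes of synapsis and the meiotic axis were described from a list of 30, which includes cohesins, HORMA-domain proteins, recombination and crossover factors and telomere attachment factors. INO80 was listed in the body and 5 kb of 20 of the 30 (63.3% of all protein-coding genes). Ino80cKO H2A.Z was listed in 26 (70.1%) and Ino80WT H2A.Z in 28 (73.6%). Of the 23 with a listed start, 14 had INO80 within 1 kb of it (56.0% of all genes with a listed start). H2A.Z of both genotypes was there at 19 (60.3%). Among those 19, the 5 without INO80 at the start (12.9% over all such genes) were Hormad1, Fkbp6, Sycp2l, Brme1 and Rnf212. Sycp2l, a paralogue of Sycp2, differs in this from Sycp2. None of the 14 genes with INO80 at the start lacked H2A.Z of both genotypes there, as Sycp3 did. Over all genes with INO80 at the start the share is 2.54%, so 14 genes are too few to set Sycp3 apart.

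Of the 23, 4 did not have H2A.Z of both genotypes at the start. Rec8, the meiotic kleisin of cohesin, had an Ino80WT peak of 523 bp at its start and no peak in the other lists. Ccnb1ip1, which encodes a crossover factor (HEI10), had an Ino80WT peak of 620 bp at its start, so that both genes were Ino80WT only at the start. The other peaks in the window of Ccnb1ip1 lay over 10 kb from its start and nearest to that of Ttc5. Rad21l, another meiotic kleisin, had H2A.Z peaks of 1194 bp in Ino80cKO cells and 1119 bp in Ino80WT cells at more than 1 kb before its listed start. An INO80 peak of 367 bp lay inside both. Syce1l, a paralogue of Syce1, had no peak in any list, unlike Syce1.

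The genes whose widest peaks were nearest to the median of the 7 genes in the 3 lists (651 bp of INO80, 692 bp of Ino80cKO H2A.Z and 629 bp of Ino80WT H2A.Z) were Hfm1, Smc3 and Terb1. The measure was the Euclidean distance of log2(width + 1 bp) over 3 values, which came to 0.54 for Hfm1, 0.55 for Smc3 and 0.65 for Terb1. A gene without a listed peak counted as 0 bp, both in the medians and in the distances. Genes without INO80 are therefore far from the median by this measure, as with Rnf212 at 9.35. The 3 named genes are thus not shown to be like Syce3 or Tex12, which have no INO80 peak. Hfm1, a helicase of crossover formation, had 763 bp of INO80, 821 bp of Ino80cKO H2A.Z and 845 bp of Ino80WT H2A.Z. Smc3, a cohesin subunit, had 827, 848 and 785 bp in that order of lists. The widest INO80 peak of Terb1 (866 bp) lies at the far end of the gene, next to Cmtm4, and its peak at the start is 516 bp.

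**Figure D5:**
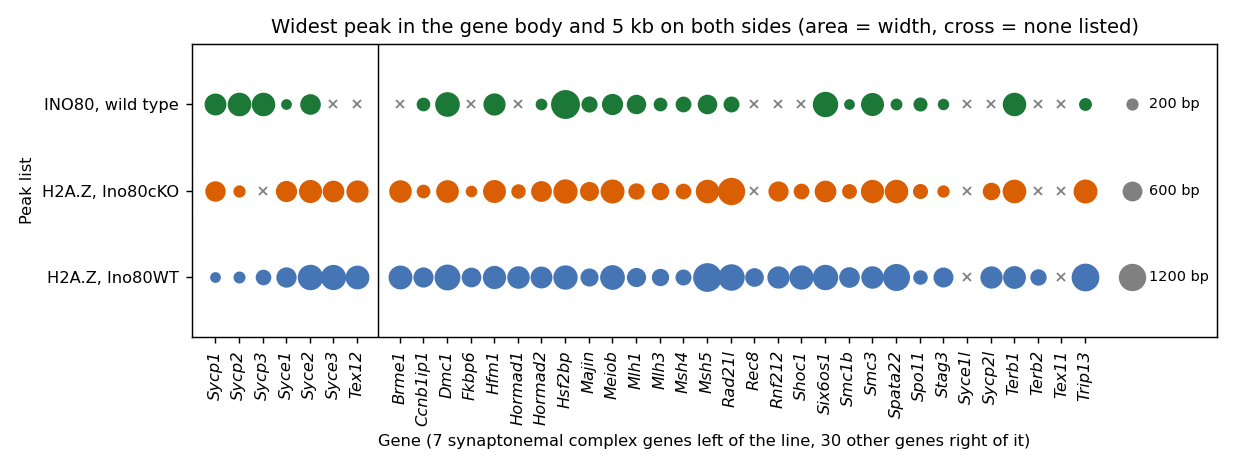
Widest peak of each list in the body and 5 kb on both sides of the 7 genes, left of the line, and of 30 other genes of synapsis and the meiotic axis, right of it, with point area in proportion to width in bp and crosses where none is listed. Crosses are most frequent in the INO80 row, at 2 of 7 and 10 of 30 genes.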

How the data were processed

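ChIP-seq was made from spermatogenic cells at postnatal day 18 after digestion of chromatin with micrococcal nuclease, per the labels' protocols. The authors deposited 3 peak lists with chromosome, start and end, which are positions and hold no counts or other score. The submitters' processing notes name Bowtie2, SAMtools, deepTools, MACS2 and mm10. How the 2 libraries behind a list were joined, which control was used and where the threshold was set is not given in the sources used here, nor whether they came from separate animals.

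Peaks were set against gene positions and start sites of RefSeq GRCm38.p6, the assembly of mm10, with an overlap of at least 1 bp. Gene windows were the body and 5 kb on both sides, and start windows 1 kb on both sides. Starts were listed for 17492 of 21887 protein-coding genes, and 7 of 7 genes matched by symbol (30 of 30 other genes, 2 through an older symbol). The gene table used has no exons. Widths were ranked within a list, apart from the ratios of Ino80cKO over Ino80WT widths in bp. Every list has 147 bp as its smallest width.

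The 7 genes, the list of other genes, the motifs and the alternatives were chosen with earlier results of these data known. The named genes are the 7, the genes next to their peaks, the other genes without H2A.Z of both genotypes at the start, and the 3 nearest in widths. The 5 others without INO80 were named after their values were seen. Counts of genes with a peak were equal to those of bedtools 2.31.1 for 3 of 3 lists, and the overlap and motif searches were tested on simulated data. Python 3.11.15, numpy 2.4.6, pandas 2.3.3 and matplotlib 3.10.9 were used.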

Additional observations from a re-analysis of the deposited data

How the results depend on the processing

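Of 67 recomputed values, 54 stayed within 1.5 times of the count as reported or did not move. With 1 kb on both sides the Ino80WT-only regions numbered 1, and with the gene body alone 0, since they lie before the starts. With start windows of 3 kb, Ino80WT H2A.Z was listed at 7 genes, since upstream peaks of Sycp3 then count, and Ino80cKO H2A.Z at 6. With the widest 50% of each list, INO80 was listed at 3 genes (Sycp1, Sycp2 and Sycp3) and Ino80WT H2A.Z at 4, with 1 region Ino80cKO only and 0 Ino80WT only, and INO80 overlapped 1 Ino80cKO peak and 0 Ino80WT peaks. With the Ino80WT list cut to the length of the Ino80cKO list by width, 2 regions were Ino80cKO only and 1 Ino80WT only, and INO80 overlapped 2 Ino80WT peaks. Both settings remove narrow partner peaks by construction, and the shares of all genes or peaks under them are not given here. With at least 50% of an H2A.Z peak covered, INO80 covered 2 of 6 Ino80cKO peaks and 4 of 9 Ino80WT peaks. The shares of all such peaks under this rule are not given here either. By summed widths the ratio at Sycp2 was 0.565, a turn of its direction, because the second Ino80WT peak is then counted. No paired analysis was possible because each group is 1 list. Leaving out a library was likewise not run, since values per library were not analysed here. The unknown depth limits every absence to the authors' peak threshold.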
